A study of Homo sapiens with 6 samples.

Results

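Primary granule genes of promyelocytes are described here, 10 in number, namely MPO, ELANE, PRTN3, AZU1, CTSG, CFD, SERPINB1, CST7, LYZ and MS4A3. They were taken by gene symbol from the count files, which list 43424 symbols, and all 10 were found and passed the filter on low counts. The libraries came from HL-60, a human acute myeloid leukaemia cell line of promyelocyte type, in 2 groups of 3 labelled replicates. The CIP group had been kept for 6 months with the plant Corydalis incisa (Thunb.) Pers. (CIP), whose form is not stated, with the dose raised slowly between 2 and 20 µg/ml, and the series calls such cells resistant. The DMSO group was exposed to DMSO over the same 6 months. The labels give the genotype WT for both groups and the same RPMI-1640 culture medium, and separate cultures are not stated for the replicates, so a p-value here reflects spread among samples that could be technical repeats. Libraries were made with QuantSeq, which sequences only the 3' end of a transcript, next to its poly(A) tail, and whole reads were counted per gene.

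Primary, or azurophil, granules are formed at the promyelocyte stage of neutrophil development, when their contents are transcribed in a burst that later stages switch off. Myeloperoxidase, a haem enzyme, is stored there and makes hypochlorous acid once released into the phagosome, while neutrophil elastase, proteinase 3 and cathepsin G are serine proteases that are activated by removal of a dipeptide and stored on the proteoglycan serglycin. Azurocidin has the fold of these proteases without their catalytic activity, and inhibitors such as SERPINB1 hold proteases that escape from the granule in check.

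The depth was 9314584 to 10868396 counts in the CIP libraries and 8143657 to 9759687 in the DMSO libraries. Levels are given in CPM (counts per 1000000 counts of the library) with TMM factors, which adjust totals for differences in composition; 3 counts in 1 library correspond to 0.287 to 0.346 CPM. Genes were tested with edgeR's quasi-likelihood test over 12844 genes and called at a Benjamini-Hochberg adjusted p under 0.05. Over all tested genes the median log2 fold change was -0.03 with TMM scaling and -0.26 with library totals alone, so small changes depend on the scaling. With TMM scaling 4482 genes were called higher and 4912 lower in CIP libraries, and with library totals 3459 and 5913. HL-60 is known for abundant myeloperoxidase, and all 3 libraries labelled DMSO go against that, so groups are named by their labels throughout.

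The 10 genes did not move together. MPO, CFD and PRTN3 were higher in CIP libraries, and SERPINB1, LYZ, CTSG, CST7, ELANE and AZU1 were lower, while MS4A3 did not pass the test. Thus 3 of 10 were called higher, where 34.9% of all tested genes were, and 6 of 10 were called lower, where 38.2% were. The libraries of the groups did not overlap for 9 of the 10 genes, against 75.5% of all tested genes, and 9 of the 10 were called in either direction, against 73.1%, so these shares do not set the 10 genes far from the background. Their median log2 fold change was -0.82, beside -0.03 over all tested genes. The median size of the change, without regard to sign, was 1.64 on the log2 scale for these genes and 0.76 for all tested genes. The RNA is from bulk cultures, where fewer cells that express a gene and less RNA per cell cannot be told apart.

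**Figure D1:**
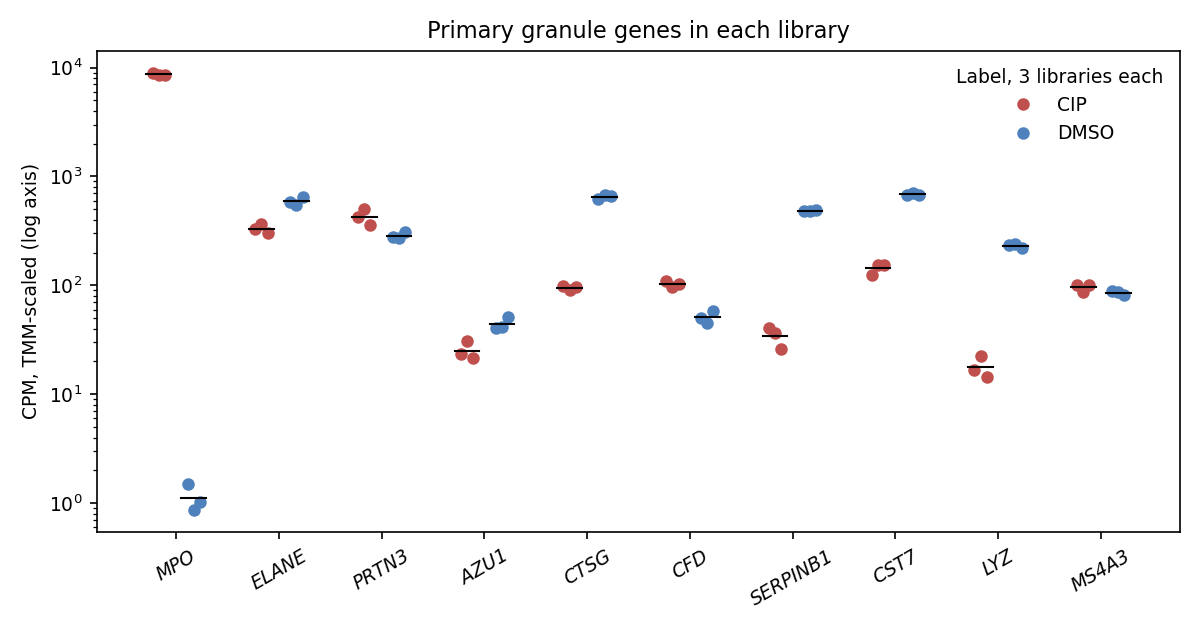
Level of each gene in each library in TMM-scaled CPM on a log axis, with CIP libraries (red) left of DMSO libraries (blue) and a black line at the mean of 3 libraries. MPO lies between 8465 and 8989 CPM in CIP libraries and between 0.861 and 1.48 CPM in DMSO libraries, while the other 9 genes are above 14 CPM in every library.

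MPO (chromosome 17, 58269855 to 58280935, minus strand, GRCh38.p14) encodes myeloperoxidase, the most abundant protein of the primary granule. It had 77887, 82824 and 84917 counts in CIP libraries 1 to 3, against 15, 9 and 9 counts in DMSO libraries 1 to 3. All DMSO values are above 3 counts. The ratio of the group means was 7739, and the log2 fold change was 12.90, with an edgeR adjusted p of 9.3e-41. This estimate rests on only 33 counts over the DMSO libraries. It lay between 12.72 and 13.15 when 1 DMSO library was left out. Within a group the spread was narrow, with 8667 ± 282 CPM in CIP libraries and 1.12 ± 0.32 CPM in DMSO libraries (SD, n = 3 each).

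The serine proteases ELANE, PRTN3 and CTSG changed to different extents and in different directions. ELANE (chromosome 19, 852303 to 856243, plus strand), neutrophil elastase, stood at 326, 368 and 303 CPM in the CIP libraries, against 583, 547 and 643 CPM in the DMSO libraries. It was therefore expressed well under both labels, and its log2 fold change was -0.83 ± 0.07 (SE), with an edgeR adjusted p of 2.24e-12. PRTN3 (chromosome 19, 840999 to 848175, plus strand), proteinase 3, the autoantigen of ANCA vasculitis, stood at 420.2, 498 and 357 CPM in the CIP libraries, against 279, 273 and 308 CPM in the DMSO libraries. Every CIP library lay above every DMSO library, and the log2 fold change was 0.57 ± 0.09 (SE), with an edgeR adjusted p of 3.73e-05. Scaled by library totals alone, the PRTN3 change was 0.34 on the log2 scale (edgeR adjusted p = 0.0166). As a plain percentage of library counts, PRTN3 took 0.0393 ± 0.0067% in CIP libraries and 0.0310 ± 0.0022% in DMSO libraries (SD, n = 3 each, exact permutation p = 0.2), and the libraries overlapped.

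CTSG (chromosome 14, 24573518 to 24576250, minus strand) encodes cathepsin G, a protease with chymotrypsin-like activity. It stood at 99.6, 90.1 and 95.9 CPM in the CIP libraries, against 622, 676 and 663 CPM in the DMSO libraries. The DMSO mean was 6.86 times the CIP mean, the furthest fall of the serine proteases among the 10 genes. The log2 fold change was -2.78 ± 0.07 (SE), with an edgeR adjusted p of 1.09e-27.

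The chymotrypsin-fold relatives AZU1 and CFD went in opposite directions. AZU1 (chromosome 19, 827837 to 832018, plus strand), azurocidin, an antimicrobial and chemotactic protein, had 203, 300 and 213 counts in the CIP libraries, against 408, 429 and 450 counts in the DMSO libraries, or 25.2 ± 4.85 CPM in CIP and 44.1 ± 5.84 CPM in DMSO libraries (SD, n = 3 each). It had the fewest counts of ELANE, PRTN3, CTSG, CFD and AZU1 under both labels, and it fell by 0.80 ± 0.13 on the log2 scale (SE, edgeR adjusted p = 1.72e-06). CFD (chromosome 19, 859664 to 863641, plus strand), complement factor D, which cleaves factor B in the alternative complement pathway, stood at 111, 96.5 and 103 CPM in the CIP libraries, against 49.8, 45.3 and 57.7 CPM in the DMSO libraries. CFD was thus 2.03 times as high in CIP libraries, a log2 fold change of 1.02 ± 0.09 (SE), with an edgeR adjusted p of 4.91e-12.

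The genes of both inhibitors fell. SERPINB1 (chromosome 6, 2832332 to 2841863, minus strand), an intracellular inhibitor of elastase, proteinase 3 and cathepsin G, stood at 40.3, 36.3 and 26.0 CPM in the CIP libraries, against 479, 478 and 495 CPM in the DMSO libraries. Its DMSO mean was 14.2 times its CIP mean, the furthest fall of the 10 genes. The log2 fold change was -3.83 ± 0.11 (SE), with an edgeR adjusted p of 9.53e-18. The RefSeq gene LOC124905367 lies within SERPINB1 at 2837634 to 2838633, apart from the 3' end of SERPINB1 at 2832332. How far its reads enter the SERPINB1 counts was not tested, and no source used here gives the strand setting of the counting. CST7 (chromosome 20, 24949269 to 24959928, plus strand), cystatin F, which inhibits the cysteine protease that activates granule serine proteases, stood at 123, 154 and 153 CPM in the CIP libraries, against 682, 702 and 680.1 CPM in the DMSO libraries. Its log2 fold change was -2.26 ± 0.07 (SE), with an edgeR adjusted p of 3.3e-24.

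LYZ (chromosome 12, 69348381 to 69354234, plus strand) encodes lysozyme, which cleaves bacterial cell walls and is stored in all neutrophil granule types as well as in monocytes. It stood at 16.6, 22.3 and 14.3 CPM in the CIP libraries, against 235, 239.9 and 221 CPM in the DMSO libraries. The log2 fold change was -3.71 ± 0.10 (SE), with an edgeR adjusted p of 4.18e-23. GENCODE 29 places the antisense gene AC020656.1 over LYZ. Its reads cannot be told apart here, because no source used gives the strand setting of the counting.

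MS4A3 (chromosome 11, 60056665 to 60071115, plus strand), a membrane protein of granulocyte progenitors also called HTm4, had 878, 854 and 1010 counts in the CIP libraries, against 889, 915 and 725 counts in the DMSO libraries. Its level was 96.8 ± 8.21 CPM in CIP libraries and 85.8 ± 3.40 CPM in DMSO libraries (SD, n = 3 each). In CPM the groups overlapped, and the log2 fold change of 0.17 ± 0.08 (SE) did not pass, with an edgeR adjusted p of 0.0574. The estimate was -0.06 with library totals alone (adjusted p = 0.545), so its direction depends on the scaling. It was 0.19 when genes of low counts were kept (adjusted p = 0.0497) and 0.25 when CIP replicate 2 was left out (adjusted p = 0.00853). Over all 14 alternatives its adjusted p lay between 0.00853 and 0.545.

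**Figure D2:**
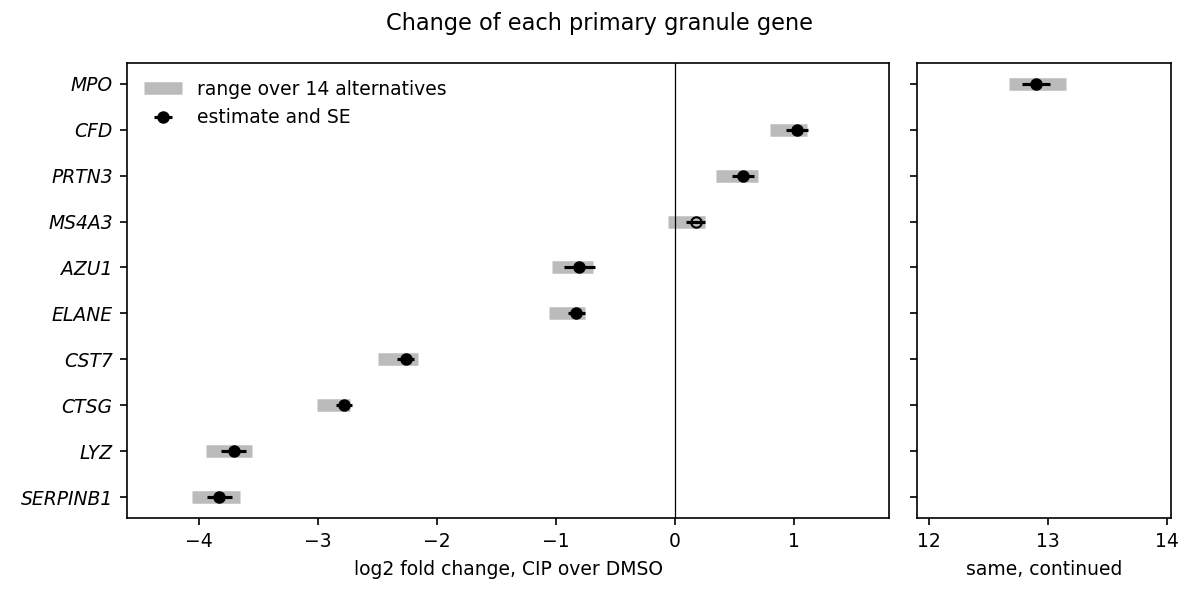
Log2 fold change of each gene, CIP over DMSO, as points with the SE of the edgeR fit (an open point did not pass the test), and as grey bars the range over 14 alternative settings; the right panel continues the axis at the same scale. MPO lies between 12.67 and 13.15 under the alternatives and SERPINB1 between -4.06 and -3.65, and only the bar of MS4A3 crosses 0. The SE drawn for MPO is too narrow for the 33 counts it had over the DMSO libraries.

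Because MPO took most of the family's counts in CIP libraries, the summed counts were read with and without it. The 10 genes took 0.954%, 0.913% and 0.889% of all counts in CIP libraries 1 to 3, against 0.333%, 0.331% and 0.348% in DMSO libraries 1 to 3. Without MPO the order was reversed, with 0.117%, 0.128% and 0.107% in the CIP libraries and 0.333%, 0.331% and 0.348% in the DMSO libraries. Neither set of percentages overlapped between the groups, and the exact permutation test gave p = 0.1 for both, the smallest value that 3 against 3 libraries allow (2-sided). MPO held 87.2 ± 1.06% of the summed counts in CIP libraries and 0.0360 ± 0.0110% in DMSO libraries (SD, n = 3 each).

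The make-up of the remaining 9 genes also differed. PRTN3 and ELANE led in CIP libraries, with 33.2 ± 2.81% and 26.1 ± 0.461% of the summed counts without MPO, against 9.19 ± 0.401% and 18.95 ± 1.2% in DMSO libraries (SD, n = 3 each). CST7 held 11.3 ± 1.61% in CIP libraries and 22.1 ± 0.767% in DMSO libraries, and CTSG held 7.53 ± 0.880% in CIP libraries and 21.0 ± 0.797% in DMSO libraries. SERPINB1 held 2.68 ± 0.493% of these counts in CIP libraries and 15.5 ± 0.113% in DMSO libraries. QuantSeq gives about 1 read for each transcript end, so these shares are not divided by gene length.

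**Figure D3:**
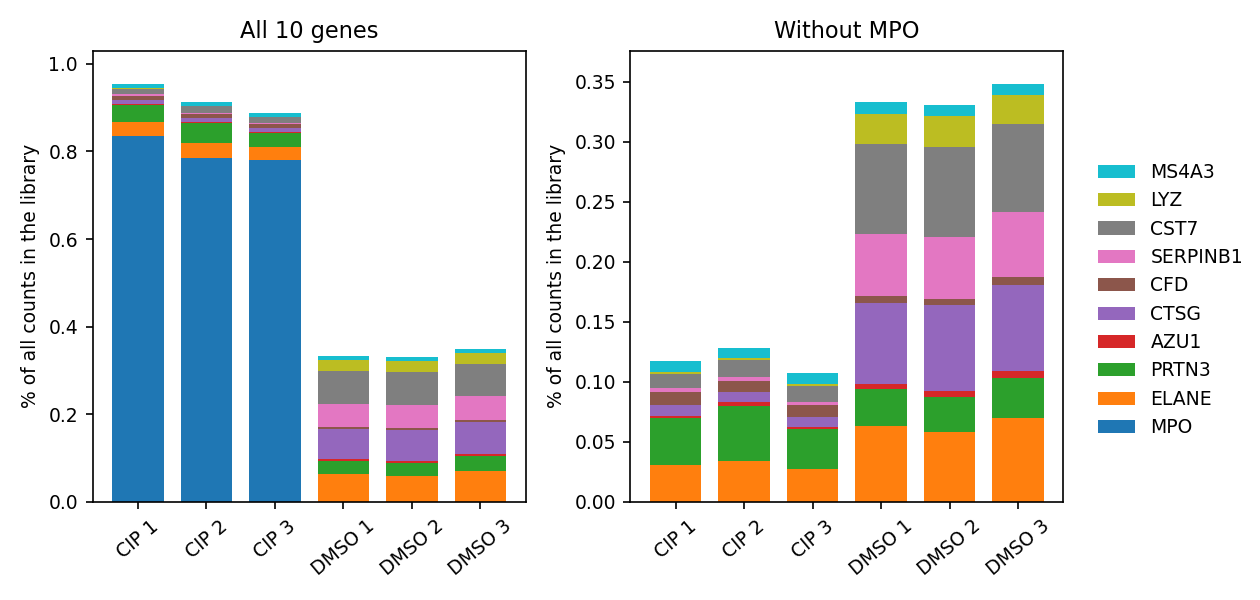
Stacked percentages of all counts in each library taken by the 10 genes (left) and by the same genes without MPO (right), with the 3 CIP libraries left of the 3 DMSO libraries. With MPO the CIP bars reach 0.889% to 0.954% and the DMSO bars 0.331% to 0.348%; without MPO the CIP bars reach 0.107% to 0.128% and the DMSO bars are nearly unchanged.

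A ratio of 2 genes within 1 library does not depend on how libraries are scaled. For each ELANE count there were 1.29, 1.35 and 1.18 PRTN3 counts in the CIP libraries, against 0.478, 0.499 and 0.479 in the DMSO libraries, a difference of 1.39 in the log2 ratio. PRTN3 thus exceeded ELANE in all CIP libraries, and ELANE exceeded PRTN3 in all DMSO libraries. For each ELANE count there were 0.306, 0.245 and 0.317 CTSG counts in the CIP libraries, against 1.07, 1.24 and 1.03 in the DMSO libraries.

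AZU1 and ELANE kept nearly the same ratio. There were 0.0720, 0.0835 and 0.0710 AZU1 counts for each ELANE count in the CIP libraries, against 0.0692, 0.0752 and 0.0791 in the DMSO libraries, and the values overlapped. The difference in the mean log2 ratio was 0.02 (exact permutation p = 0.9), and the difference between any CIP and any DMSO library lay between -0.16 and 0.27. The sign turned without CIP replicate 2 (-0.057) and without DMSO replicate 1 (-0.034). The 5 other ratios to ELANE (PRTN3, CTSG, CFD, MPO and SERPINB1) did not overlap between the groups, each with an exact permutation p = 0.1, or 0.12 adjusted over the 6 pairs, so none could pass a threshold of 0.05 in this design.

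**Figure D4:**
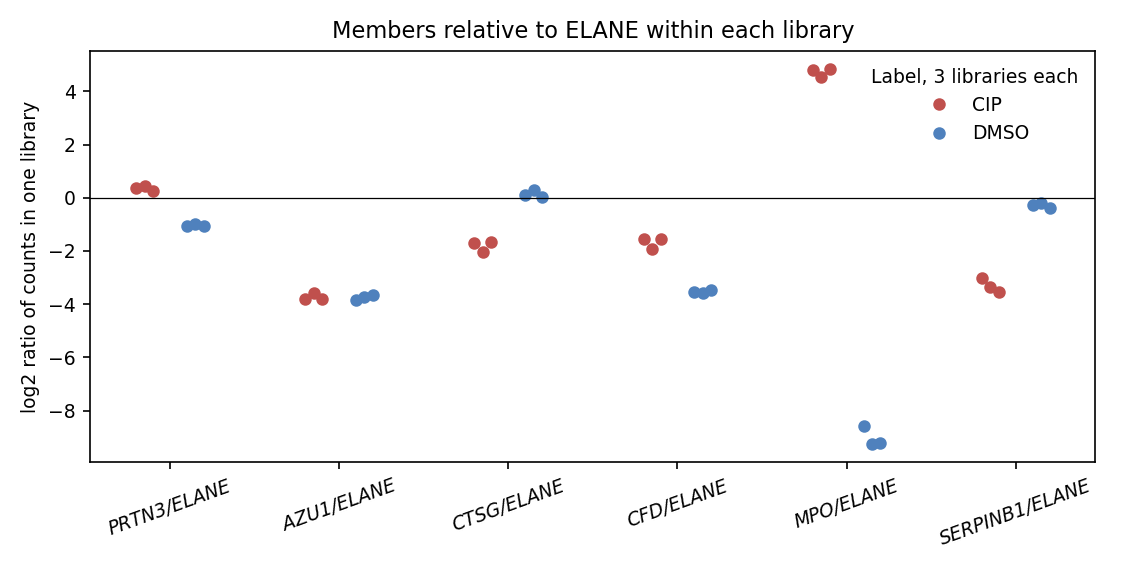
Log2 ratio of the counts of 6 genes to those of ELANE within each library, CIP libraries (red) left of DMSO libraries (blue). AZU1/ELANE overlaps between the groups, with means of -3.73 in CIP and -3.75 in DMSO libraries, while PRTN3/ELANE has means of 0.35 in CIP and -1.04 in DMSO libraries.

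AZU1, PRTN3, ELANE and CFD stand in that order within 35.8 kb of chromosome 19, all on the plus strand, with gaps of 8980, 4127 and 3420 bases between them. Along this order the log2 fold changes were -0.80, 0.57, -0.83 and 1.02, so neighbours went in opposite directions. Of 17 other tested genes with a midpoint within 250 kb of the segment 6 were called higher, 5 lower and 6 did not pass, with a median log2 fold change of -0.05. PRSS57, a further serine protease of primary granules, lies 132.4 kb from the segment and stood at 43.7 ± 4.48 CPM in CIP libraries and 2.53 ± 0.654 CPM in DMSO libraries (SD, n = 3 each). PLPPR3, a membrane protein of the lipid phosphatase-related family that lies 4.0 kb from AZU1, stood at 38.7 ± 13.0 CPM in CIP libraries and 4.53 ± 0.785 CPM in DMSO libraries. The lipid transporter ABCA7 was lower in CIP libraries, at 0.845 ± 0.745 CPM against 6.08 ± 0.506 CPM in DMSO libraries. PALM, singled out after its values were seen, was at 0.0336 ± 0.0581 CPM in CIP libraries and 2.78 ± 1.30 CPM in DMSO libraries.

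**Figure D5:**
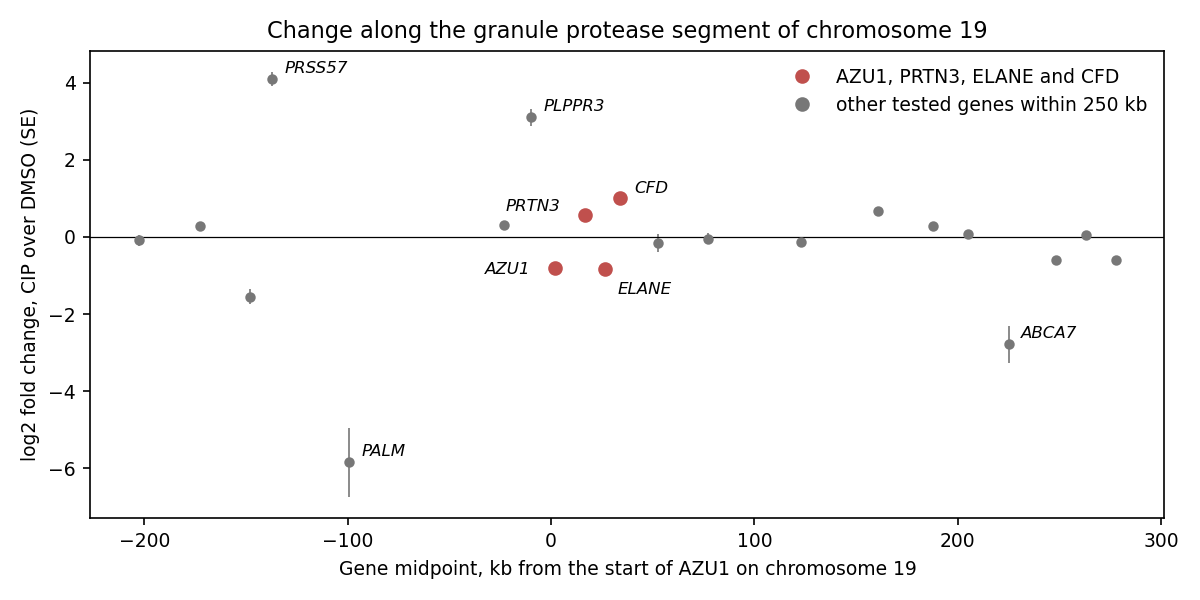
Log2 fold change, CIP over DMSO, with its SE for tested genes on chromosome 19 by the distance of their midpoint in kb from the start of AZU1; the 4 granule genes are red. AZU1 and ELANE lie at -0.80 and -0.83, PRTN3 and CFD at 0.57 and 1.02, and the unlabelled genes between -0.61 and 0.68 except FSTL3 at -1.56.

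Around the other 6 genes 27 neighbours within 250 kb were tested. With those of the chromosome 19 segment, 22 of 44 tested neighbours were called higher, 14 lower and 8 did not pass, where 34.9% of all tested genes were called higher and 38.2% lower. Around CTSG 2 were called higher and 2 lower, around SERPINB1 2 higher and 3 lower, around MS4A3 1 higher and 2 lower, and around CST7 both tested neighbours were lower. Of 8 around MPO 7 were called higher and 1 did not pass, with a median log2 fold change of 0.93. EPX, the eosinophil peroxidase and a close relative of MPO, stood at 5.98 ± 2.04 CPM in CIP libraries and had 0 counts in DMSO libraries, at least 58.7-fold higher against 3 counts over the group. TSPOAP1, a binding protein of the mitochondrial translocator protein, stood at 24.6 ± 1.71 CPM in CIP libraries and 0.235 ± 0.239 CPM in DMSO libraries, with the limit that TSPOAP1-AS1 overlaps it. Beside CST7 the acetyl-CoA synthetase gene ACSS1 stood at 25.9 ± 2.49 CPM in CIP libraries and 229 ± 8.14 CPM in DMSO libraries. All 4 tested neighbours of LYZ were called higher, by 0.60 to 1.09 on the log2 scale, while LYZ itself fell.

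Promoter sequences from RefSeq (GRCh38.p14, 250 bases before to 50 after the start) matched 6 of the 10 genes by symbol, and MPO, ELANE, CST7 and LYZ did not match. They are shown for 3 genes of the chromosome 19 segment, of which AZU1 was lower and PRTN3 and CFD higher in CIP libraries. CTSG, which fell furthest of the serine proteases among the 10 genes, is shown as well. Capitals mark letters of a motif searched. These were TTGCNNAA for C/EBP, GAGGAA for PU.1, TGTGGT for RUNX factors and TAACGG for MYB, each on both strands, and TATAA for the TATA box on the gene's own strand. AZU1 (chr19:827587-827886, plus strand), PRTN3 (chr19:840749-841048, plus strand), CFD (chr19:859414-859713, plus strand) and CTSG (chr14:24576201-24576500, minus strand) read 5′ to 3′:
AZU1: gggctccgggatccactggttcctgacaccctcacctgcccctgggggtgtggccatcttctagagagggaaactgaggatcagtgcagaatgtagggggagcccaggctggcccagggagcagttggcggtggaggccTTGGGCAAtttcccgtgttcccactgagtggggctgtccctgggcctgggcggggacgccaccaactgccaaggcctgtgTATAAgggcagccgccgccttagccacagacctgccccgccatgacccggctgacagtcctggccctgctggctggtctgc
PRTN3: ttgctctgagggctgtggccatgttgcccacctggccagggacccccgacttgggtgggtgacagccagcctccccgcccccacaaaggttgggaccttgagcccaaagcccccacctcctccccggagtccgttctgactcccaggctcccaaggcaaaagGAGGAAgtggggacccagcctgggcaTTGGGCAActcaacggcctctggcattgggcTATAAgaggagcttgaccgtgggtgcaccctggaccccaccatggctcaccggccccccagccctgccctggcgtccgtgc
CFD: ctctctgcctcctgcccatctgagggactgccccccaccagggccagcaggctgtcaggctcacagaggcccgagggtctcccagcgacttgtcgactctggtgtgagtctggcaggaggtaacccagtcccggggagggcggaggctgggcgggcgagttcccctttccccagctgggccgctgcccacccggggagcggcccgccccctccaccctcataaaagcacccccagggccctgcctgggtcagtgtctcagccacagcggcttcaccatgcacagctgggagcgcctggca
CTSG: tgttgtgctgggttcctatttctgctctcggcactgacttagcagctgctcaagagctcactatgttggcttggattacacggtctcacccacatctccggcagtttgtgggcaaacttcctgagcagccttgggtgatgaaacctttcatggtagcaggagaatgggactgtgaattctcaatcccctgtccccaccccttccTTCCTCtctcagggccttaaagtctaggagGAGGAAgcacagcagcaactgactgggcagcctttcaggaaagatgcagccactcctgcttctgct

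PRTN3, which was higher in CIP libraries, and AZU1, which was lower, carry the same C/EBP match, TTGGGCAA, 62 and 111 bases before the start. Both also have TATAA 31 bases before the start. PRTN3 has GAGGAA 88 bases before the start, CTSG has it 16 bases before the start and, on the other strand, 46 bases before it, and the CFD promoter holds none of these letters. Among the 6 promoters the C/EBP letters were found in 3, the PU.1 letters in 3, the MYB letters in 1, TATAA in 3 and the RUNX letters in 0. Among 35116 promoters of the same length these shares were 10.46% for C/EBP, 27.9% for PU.1, 3.07% for MYB, 14.8% for TATAA and 13.1% for RUNX. The TATA box was first searched as TATAAA, which was in 0 of the 6 promoters and in 7.33% of all, and the shorter TATAA replaced it after that result was seen. A match is a description of the letters only.

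Of 14 further primary granule proteins, not all of which are particular to that granule, 8 were tested. Of these 1 was called higher (PRSS57, above), 6 lower (RNASE2, RNASE3, CTSZ, GUSB, GAA and NPC2) and 1 did not pass. The median log2 fold change of the 8 was -1.82. Over all tested genes 34.9% were called higher and 38.2% lower, and the counts of every list below are to be read beside these shares. RNASE3, the eosinophil cationic protein, stood at 13.6 ± 0.482 CPM in CIP libraries and 343 ± 4.6 CPM in DMSO libraries (SD, n = 3 each). The acid glucosidase GAA stood at 0.622 ± 0.486 CPM in CIP libraries and 24.2 ± 0.670 CPM in DMSO libraries, and the lysosomal cathepsin CTSZ at 2.82 ± 0.704 CPM in CIP libraries and 28.1 ± 6.82 CPM in DMSO libraries. BPI was too low to be tested, with 20 counts over the CIP libraries and 16 over the DMSO libraries. The defensin genes DEFA1 and DEFA1B had 0 counts in every library, and DEFA3 had 20 counts over the CIP libraries and 0 over the DMSO libraries. DEFA4 had 3 counts over the CIP libraries and 1 over the DMSO libraries. Defensin counts are uncertain, since DEFA1, DEFA1B and DEFA3 are near-identical copies.

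Genes that activate, store and sort granule proteases split. Of 14 tested 5 were called higher, 7 lower and 2 did not pass, where 34.9% of all tested genes were called higher and 38.2% lower. The median log2 fold change of the 14 was -0.19. LYST, the lysosomal trafficking regulator mutated in Chediak-Higashi syndrome, stood at 228 ± 3.71 CPM in CIP libraries and 923 ± 29.6 CPM in DMSO libraries, and RAB27A, a small GTPase of granule docking, at 53.7 ± 4.88 CPM in CIP libraries and 171 ± 6.68 CPM in DMSO libraries (SD, n = 3 each). VPS33A, of the HOPS tethering complex, rose by 0.83 ± 0.15 on the log2 scale (SE, edgeR adjusted p = 1.02e-05), while VPS13B changed by -0.84 ± 0.15 (adjusted p = 4.52e-06). Serglycin (SRGN) and cathepsin C (CTSC), which removes the activating dipeptide, are given as the direct partners of the proteases and outside the rule on size. SRGN stood at 932 ± 21.5 CPM in CIP libraries and 599 ± 24.8 CPM in DMSO libraries, and CTSC at 104 ± 17.8 CPM in CIP libraries and 76.0 ± 6.04 CPM in DMSO libraries, both called higher.

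Of 12 further protease inhibitors, not all of which act on granule serine proteases, 9 were tested. Among these 2 were called higher, 6 lower and 1 did not pass, where 34.9% of all tested genes were called higher and 38.2% lower. Their median log2 fold change was -2.91. SLPI, the secretory leukocyte protease inhibitor, stood at 0.553 ± 0.486 CPM in CIP libraries and 25.8 ± 2.58 CPM in DMSO libraries (SD, n = 3 each). SERPINB2 stood at 1.22 ± 0.706 CPM in CIP libraries and 20.8 ± 1.54 CPM in DMSO libraries, and SERPINB6, which lies 106.3 kb from SERPINB1, at 5.14 ± 1.31 CPM in CIP libraries and 66.0 ± 2.79 CPM in DMSO libraries. SERPINB10, known as bomapin and found in haematopoietic cells, went the other way, with 311 ± 36.5 CPM in CIP libraries and 9.04 ± 2.39 CPM in DMSO libraries.

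Myeloperoxidase needs haem and is folded with calreticulin and calnexin, so these genes were read beside MPO. Of 9 genes of folding and processing in the secretory pathway 6 were called higher, 1 lower and 2 did not pass. The shares over all tested genes were 34.9% higher and 38.2% lower. The median log2 fold change of the 9 genes was 0.86, and with library totals alone 6 were called higher and 3 lower. CANX, calnexin, stood at 1473 ± 2.32 CPM in CIP libraries and 647 ± 9.42 CPM in DMSO libraries, and CALR, calreticulin, rose by 1.60 ± 0.06 on the log2 scale (SE, edgeR adjusted p = 6.81e-22). HSP90B1, the endoplasmic reticulum chaperone GRP94, stood at 818 ± 28.7 CPM in CIP libraries and 363 ± 19.7 CPM in DMSO libraries. FURIN, a proprotein convertase, was lower, at 21.7 ± 3.38 CPM in CIP libraries and 74.4 ± 6.43 CPM in DMSO libraries. Of 8 enzymes of haem synthesis 3 were called higher, 2 lower and 3 did not pass, with a median log2 fold change of -0.07, and with library totals alone 1 was called higher and 4 lower. UROS, uroporphyrinogen III synthase, had the largest change of these, with 42.5 ± 2.96 CPM in CIP libraries and 18.9 ± 1.27 CPM in DMSO libraries, and FECH, ferrochelatase, stood at 22.5 ± 2.74 CPM in CIP libraries and 31.8 ± 1.63 CPM in DMSO libraries.

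Of 10 transcription factors of myeloid cells, not all of which drive the promyelocyte stage, 7 were called higher, 2 lower and 1 did not pass. Among all tested genes 34.9% were called higher and 38.2% lower. The median log2 fold change of the 10 factors was 1.38, and the counts were 7 and 2 with library totals as well. CEBPE stood at 157 ± 16.0 CPM in CIP libraries and 10.2 ± 1.56 CPM in DMSO libraries (SD, n = 3 each). ETV6 stood at 234 ± 15.1 CPM in CIP libraries and 77.4 ± 9.71 CPM in DMSO libraries. SPI1, which encodes PU.1, stood at 45.1 ± 1.55 CPM in CIP libraries and 15.0 ± 2.49 CPM in DMSO libraries. CEBPD had 1336 counts over the CIP libraries and 3 over the DMSO libraries, a ratio of 462 after scaling (exact 95% interval 158 to 2241). MYB and CEBPB were those called lower, and GFI1 did not pass.

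Markers of other cell types differed between the groups too, and their part in the values above was not tested. The 6 eosinophil markers summed to 6134 to 6476 CPM in CIP libraries and 0.383 to 2.37 CPM in DMSO libraries, nearly all of it PRG2, and 3 of 3 tested were called higher (median log2 fold change 9.79, or 6.81 with genes at 0 set to their bound). RNASE2 and RNASE3, ribonucleases of the eosinophil granule, which are in the list of further primary granule proteins, went the other way, with DMSO means 4.38 and 25.3 times the CIP means. EPX, CLC, PRG3 and IL5RA had 0 counts in all DMSO libraries, and ALOX15 in all libraries. The 12 monocyte and macrophage markers summed to 47.6 to 60.2 CPM in CIP libraries and 138 to 148 CPM in DMSO libraries, with 6 of 8 tested called lower and 1 (CTSS) higher (median log2 fold change -5.04, or -4.43 with genes at 0 set to their bound). CD163 and MSR1 had 0 counts in every library, and CD14 had 2 counts over the CIP libraries and 0 over the DMSO libraries.

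The 6 mast cell and basophil markers summed to 2.72 to 3.69 CPM in CIP libraries and 104 to 119 CPM in DMSO libraries, with TPSAB1, mast cell tryptase, which had 0 counts in CIP libraries and 108 ± 6.47 CPM in DMSO libraries, making up nearly all of the DMSO sum, and 2 of 2 tested were called lower. CPA3, mast cell carboxypeptidase, was too low to be tested and went the other way, with 5, 8 and 14 counts in CIP libraries and 0 in all DMSO libraries, at least 9.33-fold higher against 3 counts over the group. HDC, histidine decarboxylase, had 12 counts over the CIP libraries and 2 over the DMSO libraries, a ratio of 6.22 after scaling (exact 95% interval 1.385 to 57.2). The 9 lymphoid markers summed to 3.73 to 4.96 CPM in CIP libraries and 87.3 to 108 CPM in DMSO libraries, with NKG7, a granule membrane protein of cytotoxic cells, at 3.19 ± 0.442 CPM in CIP libraries and 79.5 ± 12.2 CPM in DMSO libraries, and MS4A1 and GZMB at 0 counts in every library. The 9 erythroid and megakaryocyte markers summed to 5.54 to 8.43 CPM in CIP libraries and 6.998 to 8.798 CPM in DMSO libraries, and of 3 tested 1 was called higher, 1 lower and 1 did not pass. ITGA2B, the platelet integrin subunit, had 30, 21 and 21 counts in CIP libraries and 0 in all DMSO libraries, at least 24.9-fold higher against 3 counts over the group, and EPOR, the erythropoietin receptor, stood at 2.24 ± 0.529 CPM in CIP libraries and 5.85 ± 0.726 CPM in DMSO libraries. No counts were found in any library for HBA2, ALAS2, PF4 and GP9. Of 16 secondary and tertiary granule proteins, made after the promyelocyte stage, 5 were tested and all 5 were called lower (median log2 fold change -7.20, or -4.17 with genes at 0 set to their bound). Their sum was 8.28 to 22.3 CPM in CIP libraries and 45.0 to 53.1 CPM in DMSO libraries. LTF, lactoferrin, had 0 counts in CIP libraries and only 1 count over the DMSO libraries. MMP8, CRISP3, OLFM4, CEACAM8, CD177 and ARG1 had 0 counts in every library.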

How the data were processed

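Expression was measured by QuantSeq in 3 CIP and 3 DMSO libraries of HL-60 cells, grouped by the sample titles. The deposited files hold read counts per gene symbol, as whole numbers not normalized judging by their unequal totals, with a file for each library, as the file headers show. GRCh38, STAR, HTSeq, fastp and bcl2fastq 2.20.0.422 are named in the submitters' processing notes; settings, strand and annotation release are not given in these sources. QuantSeq reads lie near transcript ends, so genes with shared 3' ends can be miscounted.

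Counts were tested with edgeR 4.0.16 (R 4.3.3; filterByExpr, TMM, robust quasi-likelihood test, group alone, 2-sided, Benjamini-Hochberg over 12844 genes). The SE is the log2 fold change divided by the root of F, and it understates the error where 1 group has few counts, as for MPO. Single values had exact permutation tests over libraries, which cannot go below p = 0.1 here, with 0.5 counts added in ratios. In simulated CIP against DMSO counts 12770 genes were tested. The test found 34 of 67 genes at a 1.5-fold change, 58 of 67 at 2-fold and 66 of 66 at 4-fold. False calls numbered 11. Only these 67, 67 and 66 genes were changed there, while 73.1% of all tested genes were called in the data. How the test performs when so many genes change was not tested.

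The members and lists were chosen with earlier results of these data known. Named list genes are up to 4 called genes with the largest change and at least 5 CPM in the higher group; neighbours needed a log2 change of at least 2. Results for some list genes are not reported here. Exceptions are marked in the text. MYB, CEBPB, GFI1, CTSS, CPA3, HDC, ITGA2B, RNASE2, FSTL3 and genes at 0 counts are also outside that rule. So are BPI, DEFA4, GUSB, NPC2, LTF, CAMP and PTX3. Of 6 motifs searched, TATAA was chosen after TATAAA had given no match and the promoters had been read. Positions come from RefSeq and strands from GENCODE 29. Replicates of a group were not duplicates (chi-square per gene between 3.82 and 7.66 for each pair). Intervals cover counting error only. Alternatives were other scalings and filters, DESeq2 1.42.0, limma-voom (limma 3.58.1), a replicate block and leaving out each library.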

Additional observations from a re-analysis of the deposited data

How the results depend on the processing

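Of the 10 genes, 9 kept their direction and their side of the threshold under all 14 alternatives (RLE, upper-quartile and total-count scaling, no filter, a filter of 1 CPM, DESeq2, limma-voom, the replicate block and 6 omissions of 1 library); the exception was MS4A3, at -0.056 on the log2 scale with library totals alone. The number of genes called, 9394, lay between 9061 and 10349, and 3 genes were called higher and 6 lower except where MS4A3 passed. The median log2 fold change of the 10 genes, -0.82, was -1.05 with library totals alone and -0.93 to -0.72 when 1 library was left out. The log2 ratio of AZU1 to ELANE differed by 0.02 between the groups, and by -0.057 to 0.062 when 1 library was left out, so its sign is not determined. Same-numbered libraries did not deviate together (correlations -0.04 to -0.02). The deviations are from means of only 3 libraries, so this does not settle whether the numbers pair the samples. The replicate block called 9061 genes and changed no call among the 10. At 8143657 to 10868396 counts per library the depth limits values below 0.287 to 0.346 CPM, which among the 10 genes touches none, MPO in DMSO libraries being closest.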

Other observations

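Across the 6 libraries, the genes whose pattern was most like that of MPO were found among 8958 genes that reach 10 CPM in either group, by the root mean square difference of log2 CPM after each gene was centred on its mean. PRG2, which encodes eosinophil major basic protein, was nearest, with a difference of 0.53. SVIP and ANKRD18A followed, with 147 ± 7.88 CPM and 147 ± 9.12 CPM in CIP libraries and 0 counts in DMSO libraries (SD, n = 3 each), so their place depends on the 0.5 CPM added before taking logs. For ELANE the nearest genes were CREB3L2, a transcription factor of the secretory pathway, at 0.04, PABIR2 at 0.04 and OARD1 at 0.05. CREB3L2 stood at 66.0 ± 7.21 CPM in CIP libraries and 122 ± 10.6 CPM in DMSO libraries. The 6 libraries form only 2 groups, so the measure mainly compares the size of the group difference.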
